A study of Mus musculus with 12 samples.

Results

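The lysosome, cathepsin and V-ATPase genes are 39 genes chosen by symbol out of the 23997 genes listed in the RNA-seq values of bone marrow-derived macrophages (BMDMs). All 39 were listed and all passed the filter on low values, at least 1 FPKM in at least 3 libraries, which 10581 genes passed in total. BMDMs came from male C57BL/6 mice aged 8 to 10 weeks, either wild type (WT) or Pim1-/-, and were left untreated or were stimulated for 4 h with 100 ng/ml lipopolysaccharide (LPS), the bacterial ligand of Toll-like receptor 4. The study asked how loss of Pim1, a serine/threonine kinase, changes the response of macrophages to LPS, and it holds 3 libraries for each of the 4 groups, 12 libraries in all. Marrow from femurs and tibias was cultured for 1 d in medium with 20% serum, and the non-adherent cells were then grown for 7 d with 10 ng/ml recombinant human M-CSF, the growth factor that drives macrophage development, so that cells of all 4 groups had been exposed to M-CSF. The Pim1-/- mice were made by CRISPR-Cas9 and lack exons I to V of Pim1 in every cell, so the marrow cells lacked it throughout differentiation. The sources used here do not say whether the 3 libraries of a group came from separate mice or from separate wells of one culture, so p-values measure the spread between libraries only.

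Lysosomes are acidic compartments in which hydrolases break down material taken up by endocytosis, phagocytosis or autophagy, and macrophages carry large amounts of them. The V-ATPase, a proton pump built from a membrane sector (V0) and a cytosolic sector (V1), acidifies the lumen, which activates the cathepsins and the other hydrolases. Many genes of this system carry an E-box related sequence called the CLEAR element near their start, which is bound by TFEB, TFE3 and MITF, transcription factors whose entry into the nucleus is held back by mTORC1 at the lysosome surface.

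RefSeq promoter windows (GRCm38.p6, 250 bases before to 50 bases after the annotated start) were at hand for 32 of the 39 genes, and they were searched on both strands for the core of the CLEAR element. The letters TCACGTG or their reverse complement CACGTGA stood in 10 of the 32 windows (31.2%), against 4.29% of 27025 genes with a window. The shorter E-box CACGTG, which lies inside both, stood in 12 of 32 windows (37.5%) against 8.09% of genes. The longer form GTCACGTG or CACGTGAC, also counted among the TCACGTG matches, stood in 7 windows (21.9%) against 2.55%, and the palindrome GTCACGTGAC in 0 windows against 0.37%. TCACGTG or CACGTGA also stood in 14 of 66 windows (21.2%) of the further lysosomal genes described below. Many lysosomal genes are known to carry this element, so a higher share among genes chosen as lysosomal was given beforehand. Matches are shown here for the 7 members whose matches all lay upstream of the annotated start. These genes span the functional classes described next: an endolysosomal calcium channel (Mcoln1), a membrane glycoprotein (Lamp1), proteases (Ctsd, Lgmn), glycosidases (Gaa, Glb1) and a pump subunit (Atp6v1a). Each is printed 5′ to 3′ in the direction of the gene, with TCACGTG or CACGTGA in capitals.
Mcoln1, chr8:3500427-3500500 (+): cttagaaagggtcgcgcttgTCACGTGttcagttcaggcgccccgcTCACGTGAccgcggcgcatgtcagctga
Lamp1, chr8:13159079-13159160 (+): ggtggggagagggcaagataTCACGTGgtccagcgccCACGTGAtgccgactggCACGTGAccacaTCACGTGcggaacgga
Ctsd, chr7:142387899-142387946 (-): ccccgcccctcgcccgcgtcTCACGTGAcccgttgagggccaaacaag
Ctsd, chr7:142388046-142388077 (-): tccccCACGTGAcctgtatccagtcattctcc
Lgmn, chr12:102439116-102439162 (-): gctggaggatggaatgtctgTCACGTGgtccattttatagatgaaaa
Gaa, chr11:119267802-119267848 (+): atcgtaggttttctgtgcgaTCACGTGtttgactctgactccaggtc
Glb1, chr9:114401009-114401055 (+): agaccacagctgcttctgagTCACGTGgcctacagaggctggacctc
Atp6v1a, chr16:44139364-44139411 (-): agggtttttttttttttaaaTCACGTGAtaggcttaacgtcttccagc
Ctsd held a match 99 to 92 bases and another 245 to 239 bases before its start. Lamp1 held 4 matches between 62 and 10 bases before its start, and Mcoln1 held 2 between 72 and 39 bases before it. The starts used for Lgmn, Atp6v1a and Ctsa lie inside the listed spans of these genes (chr12:102394082-102439728 for Lgmn and chr16:44085402-44139702 for Atp6v1a). The printed stretches of Lgmn and Atp6v1a are thus upstream of an internal start and within the gene. In Ctsa a stretch of 2 matches began 13 bases before the start and ran past it, so it is not printed. The match in Atp6v0d1 also ran across the start, that in Atp6v0e lay wholly past it, and neither is printed. A match is a description of the letters and not a site shown to be bound.

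The targeted gene separated the genotypes in both conditions. Pim1 itself stood at 22.9 ± 1.8 FPKM (mean ± SD, n = 3 in every group) in WT and 8.74 ± 0.752 in Pim1-/- BMDMs without stimulus, and at 645 ± 17.8 and 219 ± 15.6 FPKM after LPS. Pim1-/- libraries thus listed 38.1% and 33.9% of the WT level, and these gene-level values do not separate deleted from retained exons. All 10 macrophage markers reached 10 FPKM in a group, but their summed level was lower in untreated Pim1-/- libraries (738 to 777 FPKM against 1420 to 1470) and in LPS-treated ones (2570 to 2710 against 3830 to 3930). Of the 10, 7 were lower and 2 higher without LPS (adjusted p under 0.05), and 9 were lower and 1 higher with it. All 10 cell cycle genes were higher in untreated Pim1-/- libraries, with sums of 756 to 840 against 129 to 142 FPKM. After LPS 9 were higher and 1 lower (adjusted p under 0.05), against 35.7% and 41.7% of all tested genes. The sums were then 644 to 728 against 348 to 352 FPKM. The WT sum was thus higher with LPS than without it, although 8 of the 10 genes fell in WT cells and 2 rose (44.5% and 44.9% of all tested genes). Lists for erythroid, stromal, mast, lymphoid (B, and T with NK), neutrophil and dendritic cells had no gene at 10 FPKM in any group. Of 10 osteoclast markers, 6 were under 1 FPKM in all groups (Calcr, Oscar, Dcstamp, Ocstamp, Mmp9 and Siglec15). The other 4 (Nfatc1, Itgb3, Tnfrsf11a and Acp5) reached 10 FPKM in at least 1 group. The list summed to 39.8 to 41.5, 30 to 33.4, 115 to 117 and 56.9 to 58.2 FPKM in WT untreated, Pim1-/- untreated, WT LPS and Pim1-/- LPS libraries. These differences run along with the groups compared in every result that follows, and their part in those results was not tested. In bulk RNA, fewer cells of a type and less RNA per cell cannot be told apart. The members' coefficient of variation between replicates had a median of 1.76% to 4.87% per group, and 1 FPKM stood for 21 to 46 fragments per kilobase of transcript, read from the smallest steps in the values.

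The 39 genes made up a large part of the macrophage transcript pool. They summed to 61300 ± 1467 FPKM in untreated WT BMDMs, which was 12.8% of all FPKM, and to 42775 ± 731 FPKM or 9.28% in untreated Pim1-/- BMDMs. After LPS they summed to 58939 ± 243 FPKM (WT) and 43702 ± 1012 FPKM (Pim1-/-), nearly the same amounts, but to 7% and 5.98% of all FPKM, as the sum over all genes was 837585 to 849323 and 713307 to 743912 FPKM after LPS against 467484 to 489710 and 452511 to 472138 FPKM without it. Much of the gap between genotypes was Lyz2. Without Lyz2 the untreated sums were 34556 to 35343 FPKM in WT (7.22% to 7.39% of all FPKM) and 29306 to 29749 FPKM in Pim1-/- libraries (6.22% to 6.49%). After LPS they were 32033 to 32247 FPKM in WT (3.77% to 3.85%) and 29982 to 30081 FPKM in Pim1-/- libraries (4.04% to 4.2%), so the share after LPS was then higher in Pim1-/- libraries. Among the 100 genes with the highest level, 13 were members in untreated WT, 9 in untreated Pim1-/-, 8 in LPS-treated WT and 7 in LPS-treated Pim1-/- cells. Levels spanned a wide range, from Lyz2, which encodes the macrophage lysozyme that cleaves bacterial cell walls, at 26300 FPKM in untreated WT cells to Ctsk, the collagen-degrading cathepsin K of osteoclasts, at 6.57 FPKM. Ctsd, Psap, Ctss and Ctsb followed Lyz2 in untreated WT cells at 7452, 7484, 4157 and 3451 FPKM, and the first pair did not differ beyond their SDs of 163 and 92.9. Some genes share sequence with others, so their levels are uncertain: 32.4% of the 50-base words of Ctsd also occur in Gm49369, 15.4% of those of Lyz2 in Lyz1, 11% of those of Cd63 and 10.8% of those of Atp6v0c in other genes (mostly pseudogenes), and 6.46% of those of Ctsl.

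**Figure D1:**
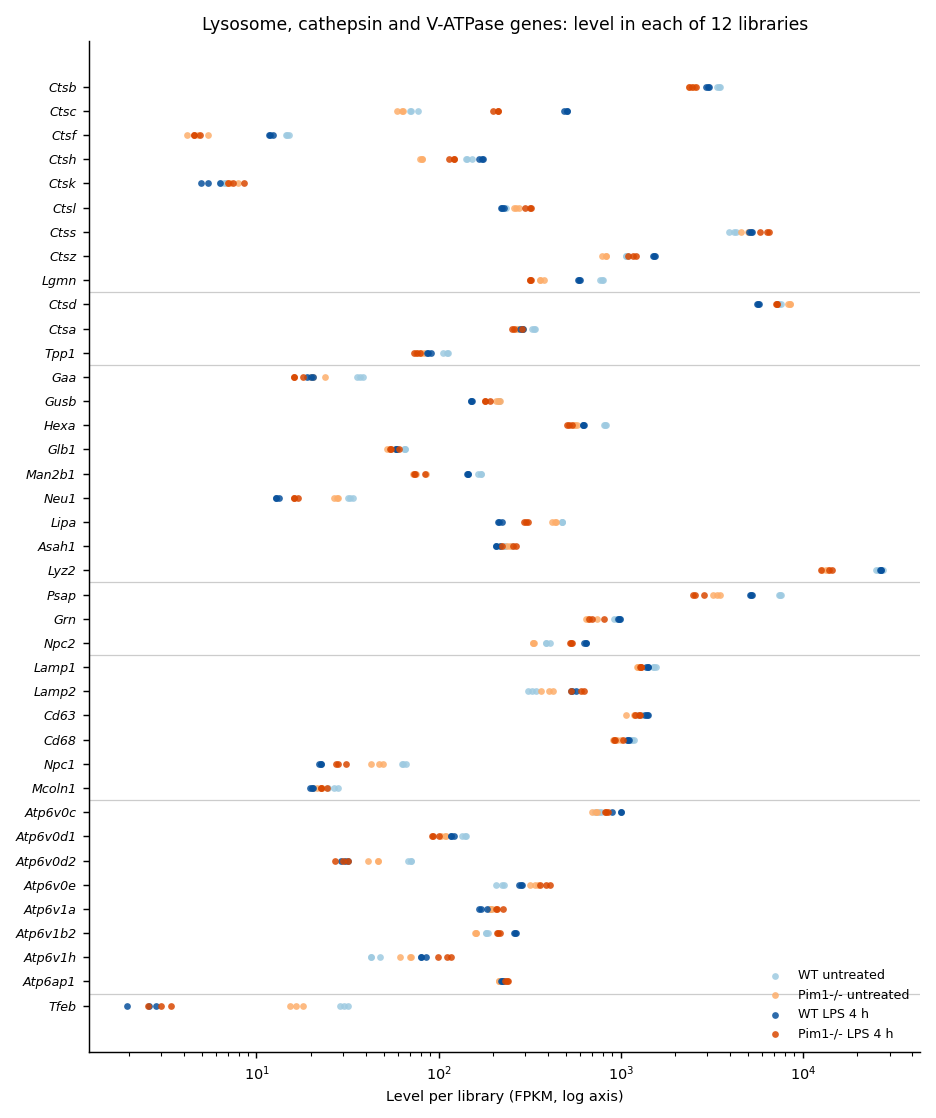
Level of each of the 39 genes in each of the 12 libraries, in FPKM on a log axis, with 1 point per library coloured by group and grey lines between functional classes. The 4 groups lie close together for most genes, while Tfeb and Ctsc are spread widest, with Tfeb near 2.44 and 2.96 FPKM after LPS against 30.3 and 16.6 FPKM without it.

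Without stimulus, most lysosomal genes had less RNA in Pim1-/- BMDMs than in their WT counterparts. At an adjusted p under 0.05 without a fold threshold, 28 of 39 were lower and 6 higher, against a background of 42% of tested genes lower and 32.7% higher. The median log2 fold change was -0.27 for the members and -0.05 for all tested genes. Of the 39, 4 were more than 2-fold lower (p under 0.05, FDR under 0.1, here termed called) and 0 more than 2-fold higher, against 3.37% and 4.4% of all tested genes. The 4 were Ctsf, Psap, Man2b1 and Lgmn, that is, a pair of protease genes, a sphingolipid cofactor gene and a glycosidase gene.

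Ctsf, which encodes the cysteine protease cathepsin F (chr19:4855165-4860918), was at 14.6, 15.02 and 14.6 FPKM in the WT and 4.75, 4.17 and 5.39 FPKM in the Pim1-/- libraries. The 2 groups lay far apart, and the log2 fold change was -1.45 (SE 0.065, adjusted p = 1.8e-11), with the Pim1-/- mean at 32.4% of WT. Psap encodes prosaposin, the precursor of the saposins that present sphingolipids to their hydrolases (chr10:60277628-60302600), and it was at 7568, 7384 and 7498 FPKM in WT and 3201, 3392 and 3513 FPKM in Pim1-/- libraries. No library of one genotype reached the range of the other, and the log2 fold change was -1.15 (SE 0.055, adjusted p = 4e-11).

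Man2b1, the lysosomal alpha-mannosidase (chr8:85082730-85098739), was at 172, 164 and 171 FPKM in WT and 72, 75.5 and 85.2 FPKM in Pim1-/- libraries, a log2 fold change of -1.11 (SE 0.061, adjusted p = 2.1e-10). Lgmn, which encodes legumain, the asparaginyl endopeptidase that matures several cathepsins (chr12:102394082-102439728), was at 766, 801 and 787 FPKM in WT and 362, 361 and 381 FPKM in Pim1-/- libraries, a log2 fold change of -1.09 (SE 0.037, adjusted p = 6e-13). Groups did not overlap for either gene. With quantile normalization the falls of Lgmn and Psap were -0.94 and -0.99, just under 2-fold, while those of Ctsf and Man2b1 stayed over 2-fold under all alternatives tried.

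Lyz2, the most abundant member (chr10:117277541-117282272), was at 26050, 27490 and 25360 FPKM in WT and 13410, 13750 and 12730 FPKM in Pim1-/- libraries. All Pim1-/- libraries were below all WT libraries, and the log2 fold change of -0.98 (SE 0.059, adjusted p = 6.3e-10) fell just short of 2-fold. Without Pim1-/- untreated replicate 2 or without WT untreated replicate 3 it was -1.01 and was called. Lyz1, a paralog that shares part of its sequence, was also lower, with -0.93 (SE 0.061, adjusted p = 2e-09).

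By class, 6 of 9 cysteine cathepsins and legumain were lower and 2 higher, and 7 of 9 glycan and lipid hydrolases were lower and 0 higher, against 42% of tested genes lower and 32.7% higher. Beside the called genes, Ctsh, an aminopeptidase-type cathepsin, had -0.86, Gaa, the glycogen-degrading acid alpha-glucosidase, -0.77, and Hexa, the alpha subunit of beta-hexosaminidase, -0.54. The soluble cofactors Grn, the progranulin gene, and Npc2, a cholesterol carrier of the lumen, had -0.49 and -0.27. The genes that were higher included cathepsins with large roles in antigen processing, Ctsl with 0.24 and Ctss with 0.23, and the aspartic protease gene Ctsd with 0.18. With quantile normalization Ctsl had 0.06 (adjusted p = 0.14).

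The V-ATPase genes as a group stood close to all tested genes in untreated Pim1-/- cells. Of the 8, 4 were lower (50%) and 2 higher (25%), against 42% and 32.7% of all tested genes, with a median of -0.08 against -0.05. Atp6v0d2, the d2 isoform of the V0 sector that is known from osteoclasts and macrophages (chr4:19876838-19922566), was at 70.5, 70.6 and 67.8 FPKM in WT and 46.8, 46.5 and 41.1 FPKM in Pim1-/- libraries, a log2 fold change of -0.63 (SE 0.062, adjusted p = 2.3e-07). Atp6v1h, the regulatory H subunit of the V1 sector (chr1:5082978-5163213), went the other way, from 42.8, 47.5 and 42.5 to 71, 69.7 and 61.3 FPKM, a log2 fold change of 0.59 (SE 0.067, adjusted p = 1.1e-06). Atp6v0e, the small e subunit of V0, had 0.61 (SE 0.053, adjusted p = 5.1e-08). Groups did not overlap for any of these genes. Atp6v0c and Atp6v1a, with -0.06 and 0.02, did not pass the test.

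Tfeb, the transcription factor of the set (chr17:47737037-47792416), was at 30.1, 28.8 and 31.9 FPKM in untreated WT and 16.5, 15.3 and 18.1 FPKM in untreated Pim1-/- libraries, with no overlap and a log2 fold change of -0.83 (SE 0.094, adjusted p = 1.1e-06). The 10 genes with TCACGTG or CACGTGA in the promoter window had a median log2 fold change of -0.28 (range -1.09 to 0.61) and the 22 genes without it -0.26 (range -1.45 to 0.28).

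**Figure D2:**
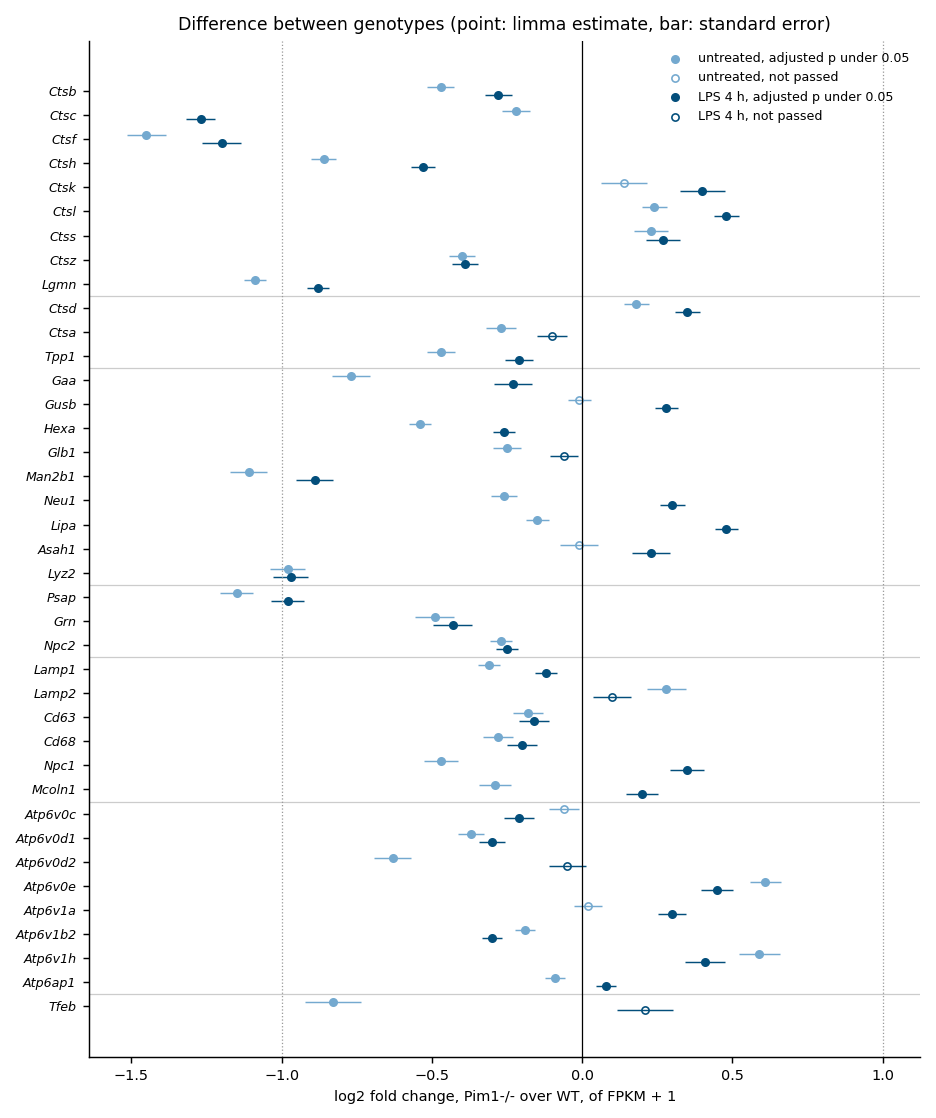
Log2 fold change of Pim1-/- over WT for each gene, on log2(FPKM + 1), in untreated (light) and LPS-treated (dark) BMDMs; points are limma estimates, bars standard errors, filled points have an adjusted p under 0.05 and dotted lines mark 2-fold. Ctsf, Psap, Man2b1, Lgmn and Lyz2 lie near or beyond the lower 2-fold line in both conditions, while Ctsc lies there after LPS, at -1.27, and at -0.22 without it.

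After LPS, WT BMDMs had far less Tfeb mRNA and less of a small group of lysosomal transcripts. Of the 39 genes, 5 (12.8%) fell more than 2-fold and 1 (2.56%) rose more than 2-fold, against 14.7% and 20.1% of all tested genes. In the deposited scaling such falls were thus no more frequent among members than among all tested genes. Without a fold threshold 23 fell and 10 rose (44.5% and 44.9% of tested genes), and the median log2 fold change was -0.17 against 0 for all tested genes. The split depends on the scaling: 35 fell and 1 rose with quantile normalization and 36 fell and 1 rose with libraries scaled to equal FPKM sums, and these settings moved the median of all genes to -0.17 and -0.67 while the members' median went to -1.01 and -0.95. Members called lower then numbered 21 and 18, against 17.5% and 34.6% of all tested genes. The 5 falls over 2-fold (Tfeb, Npc1, Neu1, Atp6v0d2 and Lipa) and the rise of Ctsc were called under all alternatives tried.

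Tfeb fell from 30.1, 28.8 and 31.9 FPKM to 2.56, 1.94 and 2.82 FPKM in WT libraries, a log2 fold change of -3.19 (SE 0.094, adjusted p = 1.5e-14), with the LPS mean 12.4-fold lower. Since the fit adds 1 FPKM, it understates this change, and with 0.1 FPKM added the value was -3.59. Npc1, the membrane transporter that exports cholesterol from the lysosome, fell from 63.9, 63.0 and 66.3 FPKM to 22, 22.5 and 22.6 FPKM, a log2 fold change of -1.48 (SE 0.057, adjusted p = 4.6e-13). The treated and untreated libraries of both genes were far apart.

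Neu1, the lysosomal sialidase (chr17:34931253-34937297), fell from 33.8, 32 and 32.7 FPKM to 13.3, 12.9 and 12.8 FPKM, a log2 fold change of -1.27 (SE 0.042, adjusted p = 6.8e-14). Lipa, the acid lipase that frees cholesterol and fatty acids from lipoprotein lipids (chr19:34492316-34527474), fell from 474, 478 and 480 FPKM to 214, 224 and 212 FPKM, a log2 fold change of -1.14 (SE 0.038, adjusted p = 6.7e-14). Atp6v0d2 fell from 70.5, 70.6 and 67.8 FPKM to 29.2, 31.9 and 30.7 FPKM, a log2 fold change of -1.16 (SE 0.062, adjusted p = 3.3e-11). No LPS library overlapped the untreated ones for these genes. Lipa and Npc1 act one after the other on the cholesterol of internalized lipoproteins, whereas the gene of the luminal carrier between them, Npc2, had 0.69 in the deposited scaling, -0.12 with equal sums and -0.55 with quantile normalization.

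Ctsc encodes cathepsin C, the dipeptidyl peptidase that activates serine proteases of granules (chr7:88278024-88315861), and it was the single member that rose over 2-fold. It went from 70.6, 76.9 and 69.4 FPKM to 509, 510 and 491 FPKM, 6.96-fold higher, with a log2 fold change of 2.78 (SE 0.048, adjusted p = 1.6e-17). With quantile normalization the log2 fold change was 1.66.

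Among the other proteases in WT cells, Lgmn, Ctsd, Tpp1 (tripeptidyl peptidase), Ctsf, Ctsa (the protective protein of the sialidase complex), Ctsk and Ctsb fell by less than 2-fold in the deposited scaling, with log2 fold changes of -0.41, -0.39, -0.31, -0.28, -0.22, -0.21 and -0.2. Lgmn, Ctsd, Tpp1, Ctsa and Ctsb were called lower with quantile normalization and with equal sums and Ctsf with equal sums, while Ctsk had -0.14 (adjusted p = 0.096) with quantile normalization. Ctsz, Ctss and Ctsh had 0.5, 0.32 and 0.23 in the deposited scaling but values below 0 with quantile normalization and with equal sums. Of the 9 glycan and lipid hydrolases, 8 fell and 0 rose, against 44.5% and 44.9% of all tested genes. Beside Neu1 and Lipa the genes that fell were Gaa with -0.88, Gusb (beta-glucuronidase) with -0.5, Hexa with -0.39, Man2b1 with -0.22, Asah1 (acid ceramidase) with -0.17 and Glb1 (beta-galactosidase) with -0.15. Of these, Gaa, Gusb, Hexa and Man2b1 were called lower with both other scalings and Asah1 and Glb1 with quantile normalization. Lyz2, at 26870, 27020 and 26470 FPKM after LPS, overlapped its untreated range and had 0.03 (adjusted p = 0.66).

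Of the membrane proteins in WT cells, Mcoln1 had -0.39 and Lamp1, one of the main glycoproteins of the lysosome membrane, -0.13, while Lamp2, its relative in chaperone-mediated autophagy, had 0.74 in the deposited scaling and -0.51 with quantile normalization. Cd68 and Cd63, with -0.08 and 0.09, did not pass the test (adjusted p = 0.15 and 0.1), although Cd63 passed with the replicate number as a block (adjusted p = 0.034). In the V-ATPase, Atp6v1h had 0.87, Atp6v1b2 0.52, Atp6v0e 0.37 and Atp6v0c 0.36 in the deposited scaling. With quantile normalization the last 3 became -0.66, -0.91 and -0.62, and Atp6v1h -0.03 (adjusted p = 0.7), so of this group a direction cannot be given apart from the scaling. Atp6v0d1, the d1 isoform found in most tissues, had -0.23 and Atp6v1a, the catalytic subunit, -0.14.

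**Figure D3:**
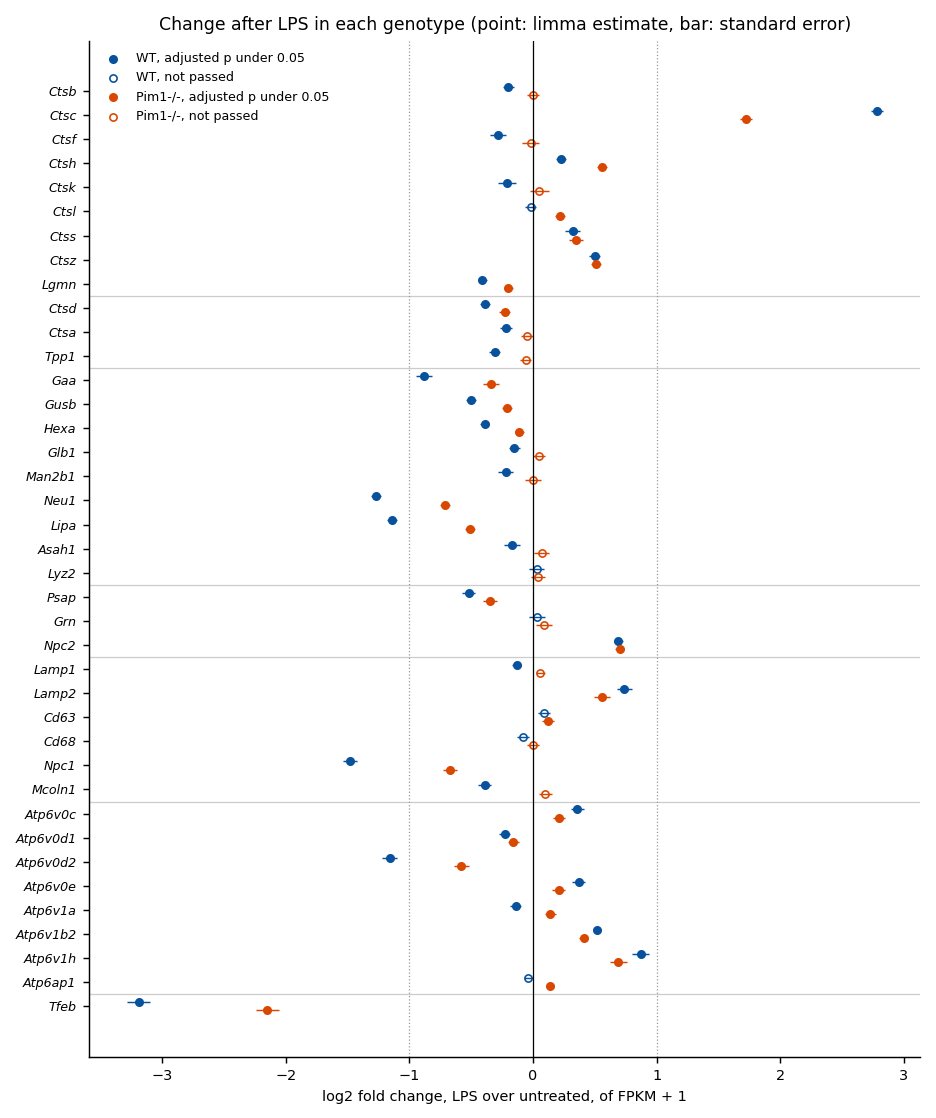
Log2 fold change of LPS over untreated for each gene, on log2(FPKM + 1), in WT (blue) and Pim1-/- (orange) BMDMs; points are limma estimates, bars standard errors, filled points have an adjusted p under 0.05 and dotted lines mark 2-fold. The fall of Tfeb is -3.19 in WT and -2.15 in Pim1-/- cells, the rise of Ctsc 2.78 and 1.72, and for most genes that fell in WT cells the Pim1-/- point lies nearer to 0.

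In Pim1-/- BMDMs, 2 members changed over 2-fold with LPS in the deposited scaling: 1 fell (Tfeb) and 1 rose (Ctsc), against 10.4% and 14.6% of all tested genes. Without a fold threshold 12 fell and 14 rose (42.6% and 42% of tested genes), the median log2 fold change being 0.05 against -0.01 for all tested genes. With quantile normalization 34 fell and 1 rose and with equal sums 35 fell and 1 rose, and these settings put the median of all genes at -0.17 and -0.58 and that of the members at -0.71 and -0.6. Members called lower were then 8 and 6, against 12.8% and 26.1% of all tested genes, and Ctsc was no longer called with quantile normalization. Tfeb went from 16.5, 15.3 and 18.1 FPKM to 2.98, 2.53 and 3.38 FPKM, a log2 fold change of -2.15 (SE 0.094, adjusted p = 3.6e-12). Ctsc went from 64.2, 63.2 and 59.0 FPKM to 211, 213 and 198 FPKM, 3.34-fold higher, with a log2 fold change of 1.72 (SE 0.048, adjusted p = 1.1e-14) that was 0.92 with quantile normalization. Both pairs of groups were fully separate.

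Neu1, Npc1, Atp6v0d2 and Lipa fell in Pim1-/- cells as well, by less than 2-fold in the deposited scaling and by more than 2-fold (called) with quantile normalization and with equal sums. Neu1 went from 27.6, 26.6 and 27.9 FPKM to 16, 16 and 16.9 FPKM with a log2 fold change of -0.71 (adjusted p = 1.8e-10). Npc1 went from 42.6, 46.9 and 49.8 FPKM to 27.4, 27.9 and 31.1 FPKM with -0.67 (adjusted p = 1.8e-08). Libraries with and without LPS did not overlap for either gene. Atp6v0d2 went from 46.8, 46.5 and 41.1 FPKM to 30, 31.9 and 26.9 FPKM with -0.58 (adjusted p = 2.6e-07), and Lipa from 421, 439 and 434 FPKM to 294, 309 and 302 FPKM with -0.51 (adjusted p = 2.7e-09). These groups did not overlap either. The 14 genes with a higher value included Npc2 with 0.7, Atp6v1h with 0.69, Ctsh and Lamp2 with 0.56, Ctsz with 0.51 and Atp6v1b2 with 0.41. With quantile normalization Npc2, Ctsh, Lamp2, Ctsz and Atp6v1b2 had values below 0, and Atp6v1h had -0.06 (adjusted p = 0.4).

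The response to LPS was then compared between the genotypes, as the log2 fold change in Pim1-/- minus that in WT cells. It was more positive in Pim1-/- cells for 24 of 39 genes and more negative for 1 (adjusted p under 0.05), against 29.6% and 33.3% of all tested genes, and the median difference was 0.19 for the members and 0 for all tested genes. With quantile normalization 28 were more positive and 1 more negative, with equal sums 32 and 1, and the members' median was 0.35 and 0.34. With the replicate number as a block 25 were more positive and 6 more negative, and leaving out 1 library gave 19 to 23 and 1 to 4. More than 2-fold differences were those of Tfeb (higher) and Ctsc (lower), against 2.24% of tested genes higher and 4.43% lower. The WT and Pim1-/- responses use different libraries, but the same libraries enter the genotype comparisons above.

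The difference was 1.04 (SE 0.13, adjusted p = 7.2e-06) for Tfeb, whose untreated level differed between genotypes while its levels after LPS, 2.56, 1.94 and 2.82 against 2.98, 2.53 and 3.38 FPKM, overlapped (log2 fold change 0.21, adjusted p = 0.056). It was 0.98 without Pim1-/- untreated replicate 2, 0.96 without Pim1-/- LPS replicate 3, 1 without WT untreated replicate 3 and 0.93 without WT LPS replicate 2, and in each of these the difference was no longer over 2-fold although its adjusted p stayed under 0.05. For Ctsc the difference was -1.06 (SE 0.068, adjusted p = 4.1e-09) from a log2 fold change between genotypes of -0.22 without LPS (adjusted p = 0.00083) and -1.27 with it, and groups did not overlap in either condition. It was -0.74 with quantile normalization and -0.91 with equal sums, both under 2-fold.

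The next largest differences were those of Npc1 with 0.81 (adjusted p = 4.6e-07), Lipa with 0.62 (9.5e-08), Atp6v0d2 with 0.58 (3.8e-05), Neu1 with 0.56 (1e-06), Gaa with 0.54 (8.9e-05) and Mcoln1 with 0.49 (4.9e-05). All 3 aspartic and serine proteases and 8 of 9 glycan and lipid hydrolases had a more positive response in Pim1-/- cells. Of all tested genes 29.6% had a more positive and 33.3% a more negative response. Of the soluble cofactors 0 of 3 passed the test. Of the 8 V-ATPase genes 3 had a more positive response (Atp6v0d2, Atp6v1a and Atp6ap1), a share of 37.5% and thus near that of all tested genes. The genes with the smallest differences were Ctsz, Npc2 and Lyz2, each with 0.01.

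**Figure D4:**
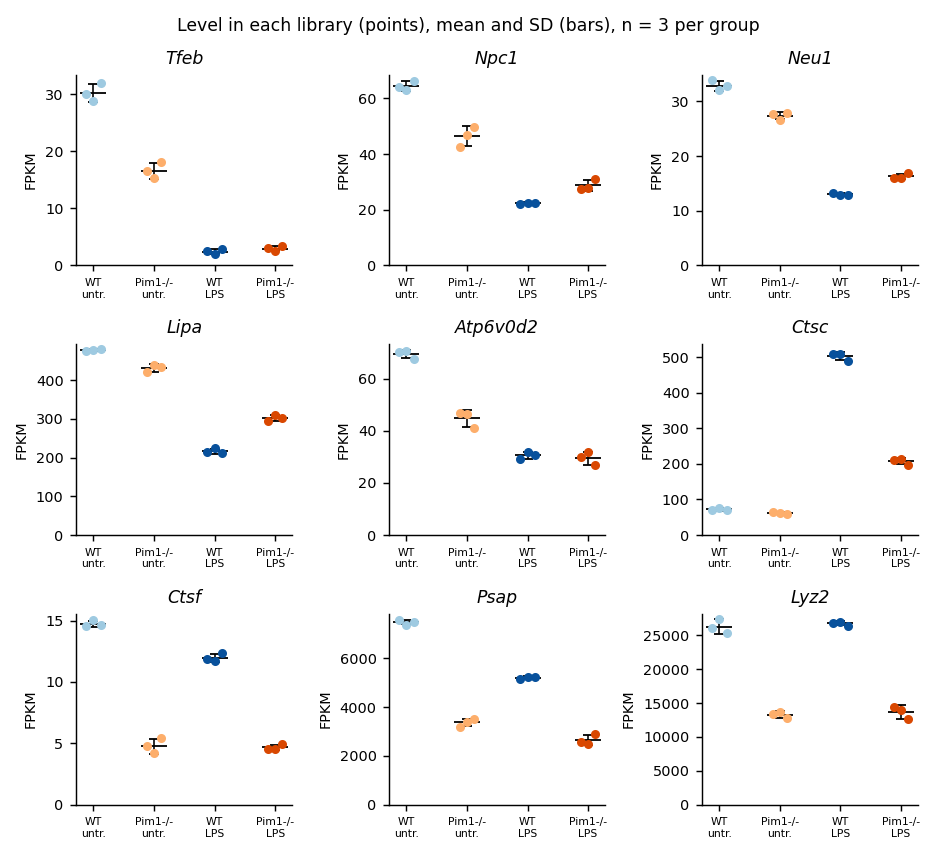
FPKM of 9 genes in each library (points), with group mean and SD (black, n = 3), on linear axes from 0. Tfeb, Npc1, Neu1, Lipa and Atp6v0d2 are low in both LPS groups, Ctsc is highest in LPS-treated WT libraries (491 to 510 FPKM against 198 to 213 in LPS-treated Pim1-/-), and Ctsf, Psap and Lyz2 are lower in Pim1-/- libraries in both conditions.

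For part of the set the difference between genotypes changed with LPS. After LPS 20 of 39 genes were lower in Pim1-/- than in WT cells and 14 higher, against 41.7% and 35.7% of all tested genes, with a median of -0.12 against -0.03. With quantile normalization 10 were lower and 18 higher, and with equal sums 10 were lower and 19 higher, where the median of all genes was 0.01 and 0.12. Called genes were 2 lower (Ctsc and Ctsf) and 0 higher, against 5.15% and 3.51% of tested genes.

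Ctsc after LPS was at 509, 510 and 491 FPKM in WT and 211, 213 and 198 FPKM in Pim1-/- libraries, a log2 fold change of -1.27 (SE 0.048, adjusted p = 2.7e-12) that was -0.96 with quantile normalization. Ctsf was at 11.9, 11.7 and 12.4 FPKM in WT and 4.51, 4.55 and 4.91 FPKM in Pim1-/- libraries, a log2 fold change of -1.2 (SE 0.065, adjusted p = 1.7e-10) that was -0.98 with equal sums. Groups did not overlap for either gene.

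Psap, at 5147, 5222 and 5249 FPKM in WT and 2550, 2504 and 2889 FPKM in Pim1-/- libraries, had -0.98 (adjusted p = 2.6e-10), and -1.04, over 2-fold, without Pim1-/- LPS replicate 3. Lyz2, at 14480, 13960 and 12600 FPKM in Pim1-/- libraries, had -0.97 (adjusted p = 6.1e-10), and -1.01 without Pim1-/- LPS replicate 1. Man2b1 and Lgmn had -0.89 and -0.88. These genes, which were among those furthest below WT in untreated Pim1-/- cells, were thus again below the WT range after LPS.

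Neu1, Lipa, Npc1 and Mcoln1 were lower in untreated Pim1-/- cells and higher in LPS-treated ones. Lipa had -0.15 without LPS (adjusted p = 0.0026, and 0.065 with equal sums) and 0.48 with it (adjusted p = 1.5e-08), when it was at 214, 224 and 212 FPKM in WT and 294, 309 and 302 FPKM in Pim1-/- libraries. Npc1 had -0.47 and 0.35, Neu1 -0.26 and 0.3 and Mcoln1 -0.29 and 0.2, with groups that did not overlap in either condition. Atp6ap1, an accessory subunit of the pump, changed sign as well, with -0.09 and 0.08, sizes that lost their pass under several alternatives. Genes that were higher in Pim1-/- cells in both conditions were Atp6v0e (0.61 and 0.45), Atp6v1h (0.59 and 0.41), Ctsl (0.24 and 0.48), Ctss (0.23 and 0.27) and Ctsd (0.18 and 0.35).

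The genes with TCACGTG or CACGTGA in the promoter window and those without it were also set side by side in the LPS comparisons. In WT cells the 10 genes with a match had a median of -0.22 (range -0.88 to 0.37) and the 22 without one -0.06 (range -3.19 to 2.78). In Pim1-/- cells the medians were 0 and 0.04, and the medians of the difference in response were 0.19 and 0.17. Of the 6 members called in WT cells, Tfeb, Neu1, Lipa and Ctsc had a window and none of these held the letters, which were absent from 22 of all 32 windows.

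The wider lysosomal system was represented by 84 further genes in 6 lists, of which 75 passed the filter. In WT cells 13 of 75 fell and 9 rose more than 2-fold after LPS, and in Pim1-/- cells 7 fell and 9 rose. These were 17.3% and 12% against 14.7% and 20.1% of all tested genes in WT, and 9.33% and 12% against 10.4% and 14.6% in Pim1-/- cells. Between the genotypes 1 was called lower and 1 higher without LPS (1.33% each, against 3.37% and 4.4%), and 2 were lower and 1 higher with it (2.67% and 1.33%, against 5.15% and 3.51%). Medians were -0.15 and -0.02 for the genotype comparisons without and with LPS, -0.07 and 0.03 for LPS in WT and Pim1-/- cells, and 0.13 for the difference in response.

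Acp5, the tartrate-resistant acid phosphatase, rose most after LPS, from 2.69, 3.32 and 3.38 FPKM to 81.6, 77.3 and 79.5 FPKM in WT cells, a log2 fold change of 4.29 (SE 0.059, adjusted p = 1.1e-18). In Pim1-/- cells it went from 1.31, 1.31 and 1.24 FPKM to 37.3, 35.4 and 35.8 FPKM, a log2 fold change of 4.02 (SE 0.059, adjusted p = 3.3e-18), and remained below the WT range after LPS with -1.11 between genotypes (adjusted p = 1.5e-10). Acp5 is also on the list of osteoclast markers, of which it had the highest level after LPS. Cst7, the cathepsin C and legumain inhibitor cystatin F, rose as well, from 3.07, 2.82 and 3.35 FPKM to 69.6, 67.4 and 71.5 FPKM in WT cells (log2 fold change 4.11) and from 5.47, 4.3 and 5.47 FPKM to 44.8, 46 and 46.5 FPKM in Pim1-/- cells (2.95). The target protease gene Ctsc, as described, had 2.78 and 1.72.

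Tfec, a relative of Tfeb found in macrophages, rose from 13.4, 15.7 and 13.4 FPKM to 176, 177 and 173 FPKM in WT cells (log2 fold change 3.54, adjusted p = 1e-17) and with 2.97 in Pim1-/- cells, whereas Tfeb fell in both. Flcn, folliculin, a regulator of mTORC1 and of TFEB localization, fell from 40.2, 38.7 and 41.1 FPKM to 5.66, 4.89 and 5.44 FPKM in WT and from 19.9, 19.8 and 21.2 FPKM to 7.95, 7.65 and 8.28 FPKM in Pim1-/- cells, with log2 fold changes of -2.7 and -1.25. Untreated and treated libraries of Flcn and of Tfec did not overlap in either genotype.

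Among the other hydrolases Sgsh, the heparan N-sulfatase, had -3.33 after LPS in WT and -2.67 in Pim1-/- cells, and Pla2g15, the lysosomal phospholipase A2, -3.23 and -2.49. Pla2g15 was also lower in untreated Pim1-/- than WT cells, at 41.9, 40.5 and 43.5 against 88.9, 91 and 89.2 FPKM (log2 fold change -1.08, adjusted p = 3.5e-11). Arsb, arylsulfatase B, differed over 2-fold in the opposite direction, at 20.2, 21.5 and 22 FPKM in Pim1-/- and 8.04, 7.78 and 7.57 FPKM in WT libraries without LPS (log2 fold change 1.34, adjusted p = 4.1e-12), and with 1.31 after LPS (adjusted p = 5.5e-12). Lyz1 had -1.02 after LPS (adjusted p = 6e-10).

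**Figure D5:**
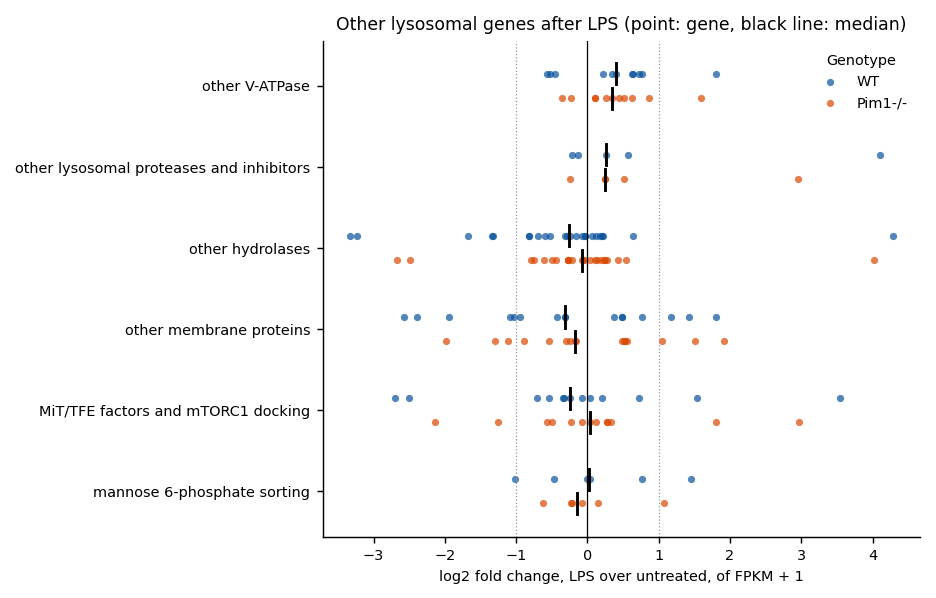
Log2 fold change of LPS over untreated, on log2(FPKM + 1), for the 75 further lysosomal genes that passed the filter, in 6 lists, with 1 point per gene, WT in blue, Pim1-/- in orange, black lines at list medians and dotted lines at 2-fold. The points at the right are Acp5 (4.29 in WT) and Cst7 (4.11), and those farthest left are Sgsh (-3.33) and Pla2g15 (-3.23).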

How the data were processed

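RNA-seq measured gene expression in 12 libraries. Per the labels, libraries were made with a stranded mRNA kit; the submitters' processing notes name bcl2fastq 2.20.0.422, cutadapt 1.18, TopHat2 2.0.13, Cuffdiff 2.2.1 and mouse build mm10, while the paper's methods name a rat build. The deposited columns carry no unit and were read as FPKM that the authors computed with Cuffdiff. The gene annotation and the strand setting of the counting were not given in the sources used here. After LPS 1 fragment was worth more FPKM (21.0 to 32.3 fragments per kilobase at 1 FPKM, against 37.9 to 46.0 untreated). Total depth was not estimated.

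Values were used as deposited. log2(FPKM + 1) was fitted by limma 3.58.1 in R 4.3.3, using 4 group means and a mean-variance trend, on the 10581 genes that reached 1 FPKM in 3 or more libraries, with Benjamini-Hochberg adjustment over all of them. Called means over 2-fold, p under 0.05 and FDR under 0.1; rose or fell means adjusted p under 0.05. In simulated data 200 of 200 genes changed 3-fold were recovered in each 2-group comparison, with at most 1 false call. The changes exceeded the call threshold and were placed in well-expressed genes. All other genes were alike between groups, and the noise was the spread between libraries. The simulation thus checks the code and does not estimate error rates of the real calls. Alternatives were a pseudocount of 0.1, no filter or 5 FPKM, median-ratio, quantile and equal-sum scaling, a replicate block, no trend, only the groups compared, a 1.5-fold threshold and leaving out each library.

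Members and lists were chosen with earlier results of these data known. All members may be named; those called or at the extremes get values per library; of the other lists, up to 5 called genes with the largest change per comparison are named. Tfec, Flcn and Lyz1 in comparisons beyond that rule were added beside related genes.

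Replicate numbers were compared by Spearman's rho of deviations from group means over 3797 genes at 10 FPKM or more. All rho were over 0.1 between untreated WT and Pim1-/- (0.19, 0.41, 0.57), untreated and LPS-treated WT (0.13, 0.35, 0.19) and untreated and LPS-treated Pim1-/- (0.55, 0.56, 0.77), so numbers were treated as a possible pairing of these, but not of LPS-treated WT and Pim1-/- (-0.01, 0.45, 0.21). Pearson's r was -0.21, 0.37 and -0.02 for the first pair, 0.3, -0.14 and 0.15 for the second and 0.39, 0.62 and 0.32 for the third. Libraries with unlike numbers were not compared, so the pairing is uncertain, and the main fit does not use it. No 2 libraries were identical. Positions and sequences are from RefSeq, GRCm38.p6. Shared 50-base words and exon overlaps are from GENCODE M21. The largest overlap was that of Ctsd with Gm49369 (34.4% of exon bases). On the other strand, Ctsl overlapped Gm47123 (26.8%), Ctsb Fdft1 (12.8%) and Hexa Tmem202 (12.8%). Whether reads from the other strand entered the values is not known.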

Additional observations from a re-analysis of the deposited data

Results flagged for a closer look

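The response to LPS differed over 2-fold between the genotypes, by the test of the difference itself, for 6 of the genes reported. Of the 39 members 1 (2.56%) was called higher and 1 (2.56%) lower. Of the 75 other lysosomal genes tested, 3 (4%) were called higher and 1 (1.33%) lower. The shares over all tested genes were 2.24% higher and 4.43% lower. The log2 fold change in Pim1-/- minus that in WT cells was 1.04 for Tfeb and -1.06 for Ctsc among the members. Among the other lysosomal genes it was 1.45 for Flcn, 1.27 for Ctns, the lysosomal cystine exporter, 1.05 for Slc17a5, the sialic acid exporter, and -1.16 for Cst7. Ctns was at 24.0, 23.1 and 23.1 FPKM in untreated WT, 13.6, 14.6 and 15.7 in untreated Pim1-/-, 3.22, 3.27 and 2.85 in LPS-treated WT and 5.22, 5.25 and 5.5 in LPS-treated Pim1-/- libraries. Slc17a5 was at 25.3, 26.1 and 25.2, at 18.8, 19.5 and 19.0, at 5.93, 5.97 and 5.91 and at 10.3, 10.4 and 9.02 FPKM in the same order. Both lay below WT without LPS and above it with LPS, as did Flcn. The difference of Tfeb fell under 2-fold without Pim1-/- untreated replicate 2 (0.98), Pim1-/- LPS replicate 3 (0.96), WT untreated replicate 3 (1) or WT LPS replicate 2 (0.93), and that of Ctsc with quantile normalization (-0.74) and with equal sums (-0.91). Groups of 3 libraries are too small to look for single outlying libraries.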

How the results depend on the processing

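Results kept their direction and their side of the threshold under most alternatives, and the choice of scaling changed most. The members' values are given with the setting in which they moved, and the causes were not tested.

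Genotype, untreated: 4 genes called lower became 2 with quantile normalization and 9 at 1.5-fold, 0 called higher became 2 at 1.5-fold, and the median was -0.21 with equal sums. Genotype, LPS: 2 called lower became 1 with quantile normalization, 1 with equal sums and 6 at 1.5-fold; genes lower without a fold threshold became 10 and 10, the median 0.05 and 0.09, and Lamp1 turned to 0.09 with equal sums.

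LPS in WT cells: 5 called lower became 21 with quantile normalization and 18 with equal sums, those falling without a fold threshold 35 and 36, those rising 1 and 1, and the median -1.01 and -0.95; 4 rose at 1.5-fold. Quantile normalization and equal sums turned Ctsh to -0.88 and -0.57, Ctss to -0.69 and -0.5, Ctsz to -0.27 and -0.31, Npc2 to -0.55 and -0.12, Atp6v0c to -0.62 and -0.45, Atp6v0e to -0.91 and -0.44 and Atp6v1b2 to -0.66 and -0.29, and the former turned Lamp2 to -0.51.

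LPS in Pim1-/- cells: with quantile normalization 8 were called lower and 0 higher, 34 fell and 1 rose and the median was -0.71. With equal sums 6 were called lower, 35 fell, 1 rose and the median was -0.6, and at 1.5-fold 3 were lower and 3 higher. Both scalings turned Ctsh to -0.21 and -0.09, Ctsl to -0.64 and -0.44, Ctss to -0.61 and -0.31, Ctsz to -0.22 and -0.15, Cd63 to -0.58 and -0.55, Atp6v0c to -0.54 and -0.45, Atp6v0e to -0.65 and -0.45, Atp6v1a to -0.72 and -0.52, Atp6v1b2 to -0.46 and -0.25 and Atp6ap1 to -0.71 and -0.52. Quantile normalization turned Npc2 to -0.23 and Lamp2 to -0.36.

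Difference in response: genes with a more negative response were 1 as reported, 2 without a filter, 2 with median-ratio scaling and 6 with the replicate block. Called lower were 0 with quantile normalization and 0 with equal sums, the median was 0.35 and 0.34, and 3 were called higher at 1.5-fold.

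The replicate block changed 1 other call where numbers were treated as a possible pairing (Cd63 in WT cells, 0.09, adjusted p = 0.034). Where they were not, it added Ctsa (-0.1, adjusted p = 0.018), Lamp2 (0.1, adjusted p = 0.023) and Tfeb (0.21, adjusted p = 0.0017) between genotypes after LPS.

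Leaving out each library gave 4 to 5 called lower, 27 to 28 lower and 6 to 6 higher and a median of -0.29 to -0.25 for genotype untreated; 2 to 3, 20 to 22, 13 to 14 and -0.13 to -0.11 for genotype after LPS; 5 to 5 called lower and 1 to 1 higher, 22 to 23 and 10 to 10, and -0.19 to -0.15 for LPS in WT; 1 to 1 and 1 to 1, 11 to 13 and 12 to 15, and 0.01 to 0.05 for LPS in Pim1-/-; and 1 to 1 and 0 to 1 called, 1 to 4 and 19 to 23 passing, and 0.16 to 0.21 for the difference. Genes called higher between genotypes stayed at 0 to 0.

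Where 1 sample was left out, 2 libraries remained in its group and the spread was pooled over all groups. Total depth is unknown. The members' highest coefficients of variation were 18.4% and 14.3% for Tfeb in LPS-treated WT and Pim1-/- cells and 12.8% for Ctsf in untreated Pim1-/- cells.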
